A study of Mus musculus with 12 samples.

Results

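The mouse gene areas described here are those of microRNAs, chosen by name alone: every area whose symbol starts with Mir followed by a digit, or with Mirlet. They number 421 of the 37544 gene areas in the table, taking 1 row per symbol. Of these, 420 are single hairpins and 1, Mir17hg, is the host transcript of the miR-17 cluster. Their lengths run from 28 to 3008 bp with a median of 83 bp, whereas the median over all gene areas is 6256 bp.

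Sonicated, denatured DNA was immunoprecipitated and sequenced, with an antibody against 5-hydroxymethylcytosine (5hmC) or against 5-methylcytosine (5mC). The cells were Th1, Th2, iTreg and Th17 cells, which are helper and induced regulatory T cells, and naive T cells, which have not yet met antigen. Each of the 5 cell types gave 1 library with each antibody, and the Th17 cells also gave 1 library with control IgG and 1 of input DNA without antibody. The study used mice whose floxed Tet2 gene is deleted by a CD2-driven Cre, together with wild-type littermates on a mixed background, and the labels do not say which genotype gave which library. How the cells were sorted or cultured, and whether animals were pooled, is not given in the sources used here. Every group is 1 library, so a difference between cell types has no replicate check and is given without a p-value. In bulk DNA, a mark on fewer cells and less of the mark per cell cannot be told apart.

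A microRNA begins as a longer transcript from which Drosha and Dgcr8 cut a hairpin. Dicer trims the hairpin, and an Argonaute protein loads 1 strand and pairs its seed, bases 2 to 8, with target mRNAs. Helper T cells rely on a limited set of microRNAs for activation, proliferation and lineage choice. 5hmC is made from 5mC by the Tet enzymes and is known to be abundant in the bodies of transcribed genes in T cells, so a hairpin area reports on the DNA that encodes the microRNA and not on the mature RNA.

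The mature sequences below belong to the T cell microRNAs whose areas carry most of the following results. They are RefSeq sequences of GRCm38.p6, written 5′ to 3′, with the seed in capitals.
miR-155-5p: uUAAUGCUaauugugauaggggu
miR-146a-5p: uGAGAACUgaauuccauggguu
miR-181a-5p: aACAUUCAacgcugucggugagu
miR-181b-5p: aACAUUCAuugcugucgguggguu
miR-181c-5p: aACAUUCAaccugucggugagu
miR-181d-5p: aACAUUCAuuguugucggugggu
miR-21a-5p: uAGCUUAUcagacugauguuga
miR-142a-3p: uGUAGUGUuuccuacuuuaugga
miR-17-5p: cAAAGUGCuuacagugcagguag
miR-20a-5p: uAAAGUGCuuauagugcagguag
miR-106b-5p: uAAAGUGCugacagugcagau
miR-93-5p: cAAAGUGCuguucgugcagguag
miR-18a-5p: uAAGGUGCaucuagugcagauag
miR-19a-3p: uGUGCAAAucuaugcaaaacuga
miR-19b-3p: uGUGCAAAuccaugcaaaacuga
miR-92a-3p: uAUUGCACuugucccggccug
miR-25-3p: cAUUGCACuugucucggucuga
miR-23a-3p: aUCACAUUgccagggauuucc
miR-27a-3p: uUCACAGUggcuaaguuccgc
miR-24-3p: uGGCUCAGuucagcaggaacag
miR-15b-5p: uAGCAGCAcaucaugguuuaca
miR-16-5p: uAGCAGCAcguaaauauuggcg
miR-210-3p: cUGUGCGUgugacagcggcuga
miR-222-3p: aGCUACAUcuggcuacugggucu
let-7g-5p: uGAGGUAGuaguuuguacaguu
The seed groups cut across the genomic clusters. The AAAGUGC seed is shared by members of the clusters on chromosomes 14 (Mir17, Mir20a), 5 (Mir106b, Mir93) and X (Mir106a, Mir20b), and ACAUUCA by the 6 areas of the miR-181 family on chromosomes 1, 2 and 8.

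How far members with a common seed differed in 5hmC depended on the library. The 6 areas with the AAAGUGC seed held 5.2 to 20.8 in Th1, 5.4 to 66.4 in Th2, 3.7 to 33.4 in the iTreg-labelled library, 3.0 to 8.4 in the Th17-labelled library and 3.6 to 85.3 in naive cells. The 6 areas of the miR-181 family held 4.0 to 6.9, 1.8 to 33.1, 6.3 to 21.6, 5.4 to 9.8 and 5.2 to 80.1 in that order. Members of both these groups were thus close in the Th17-labelled library and far apart in Th2 and naive cells. Other seeds differed from this. The 3 areas with the GUGCAAA seed held 3.0 to 38.1 in the Th17-labelled library and 3.2 to 5.6 in naive cells. The 2 areas with AAGGUGC held 3.0 to 42.6 and 4.2 to 18.4 in that order. The unit here and below is the deposited signal, a mean over the area on a scale the sources do not define.

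The labels of the libraries were checked against genes of known lineage. Naive genes were highest in the naive library for 5hmC, Tbx21 and Ifng in Th1, and Il4, Il5 and Il13 in Th2. The iTreg-labelled library went against its label: Il17a and Il17f, the defining cytokines of Th17 cells, had 31.3 and 32.8 there, against 8.8 and 5.3 in the Th17-labelled library. Foxp3, the defining factor of regulatory T cells, had 25.3 in the iTreg-labelled library and 30.9 in the Th17-labelled library. Gata3, a Th2 factor, was highest in the iTreg-labelled library at 194.9, with 75.2 in Th2 and 99.6 in naive cells. These 2 libraries are therefore named by their labels only, and each difference is given per library, so that the Th1 and Th2 values stand without them.

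Across all 421 areas, microRNA DNA held less 5hmC than the typical gene area. The median 5hmC signal was 6.0 in Th1, 6.0 in Th2, 6.5 in the iTreg-labelled library, 5.2 in the Th17-labelled library and 6.5 in naive cells. Over all gene areas the same medians were 10.9, 11.0, 11.0, 9.9 and 12.0 in that order of libraries. The 267 other areas of at most 150 bp had medians of 7.2, 7.5, 5.8, 4.6 and 13.1 in that order. In the naive library the microRNA areas were thus lower than other short areas, while in the iTreg- and Th17-labelled libraries they were slightly higher. The microRNA 5mC medians were 0.5, 0.5, 0.3, 0.4 and 0.5 in the same order, a few rounding steps above 0. Those of all gene areas were 0.6 or 0.7, and those of the other short areas were 0.2 in each library. MicroRNA 5mC thus lay below that of all gene areas and above that of other short areas.

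**Figure D1:**
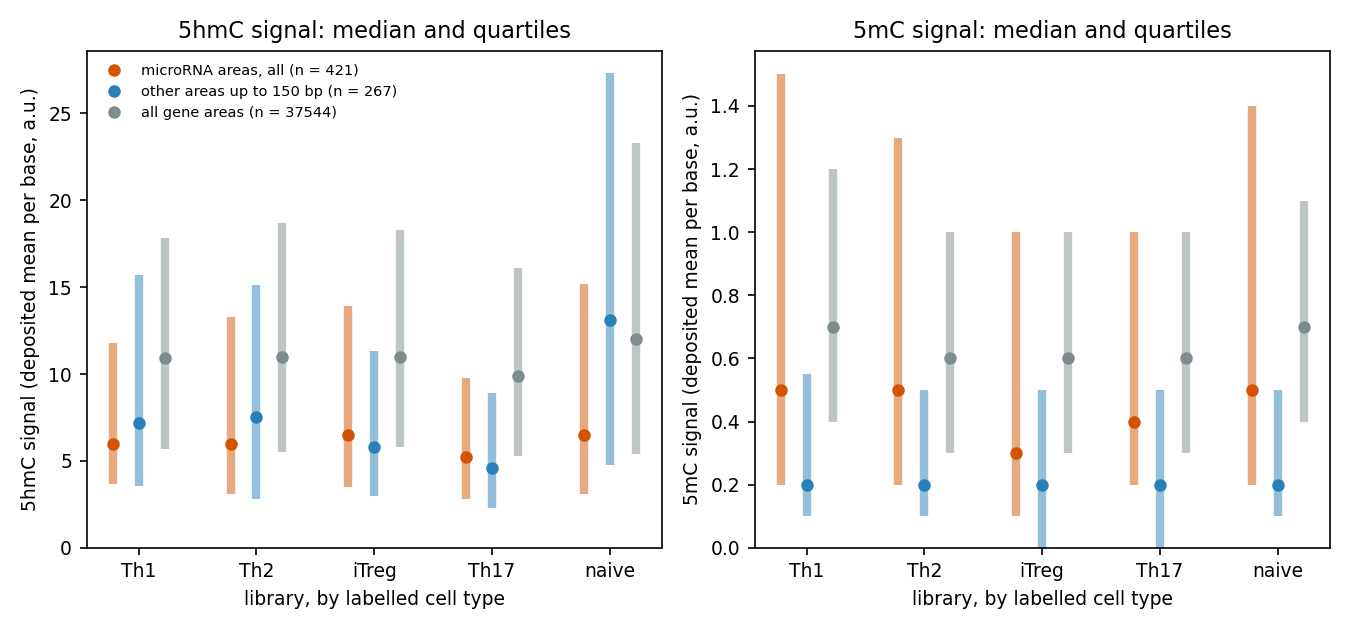
Median (point) and quartiles (bar) of the deposited 5hmC signal (left) and 5mC signal (right) in each library, for the 421 microRNA areas, the 267 other areas of at most 150 bp and all 37544 gene areas. The microRNA medians of 5hmC lie between 5.2 and 6.5 in the 5 libraries, below the medians of all gene areas.

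A filter on the mean over the 10 5hmC and 5mC libraries, at 3.31, was passed by 267 microRNA areas and missed by 154. Since 5hmC makes up most of that mean, an area can pass through 1 library with high 5hmC, so the counts below over the 267 areas describe them and are not support for a direction. Chromosome X held 62 microRNA areas, of which 47 missed the filter, among them all 13 hairpins of the cluster from Mir743 to Mir470. The highest mean 5hmC belonged to Mir706 at 254.74, a 28 bp area inside Ctss, followed by Mir297-2, Mir497, Mir297a-6 and Mir24-2. The lowest among areas past the filter belonged to Mir411 at 3.8, Mir410 at 4.92 and Mir215 at 5.18.

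Against naive cells, microRNA areas went past 2-fold in both directions at a larger share than gene areas in general. In Th1, 53 of 267 microRNA areas (19.9%) had at least 2-fold more 5hmC than in naive cells and 78 (29.2%) at least 2-fold less, against 4.34% and 16.1% of all 28159 areas past the filter. In Th2 the counts were 51 above (19.1%) and 70 below (26.2%), against 4.85% and 14.8% of all areas. The iTreg-labelled library gave 63 above (23.6%) and 71 below (26.6%), against 4.52% and 14.7% of all areas. The Th17-labelled library gave 38 above (14.2%) and 97 below (36.3%), against 4.63% and 25.6% of all areas. After median-ratio scaling the counts were 65 above and 63 below in Th1, 69 above and 62 below in the iTreg-labelled library, and 61 above and 77 below in the Th17-labelled library. In Th1 and the iTreg-labelled library the larger count was thus the one below naive as deposited, and the one above naive after that scaling. The 4 comparisons share the 1 naive library.

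Length moves with this excess. Of the 181 other short areas past the filter, 11.6% were at least 2-fold above naive in Th1 and 41.4% at least 2-fold below, 10.5% and 43.1% in Th2, 6.08% and 54.1% in the iTreg-labelled library, and 6.08% and 62.4% in the Th17-labelled library. Both kinds of short area thus had larger shares past 2-fold than all areas. The microRNA share above naive exceeded that of other short areas in each comparison, and the share below was smaller. The median microRNA difference from naive was -0.18 in Th1, -0.04 in Th2, -0.09 in the iTreg-labelled library and -0.38 in the Th17-labelled library on the log2 scale. The medians over all areas were -0.26, -0.21, -0.24 and -0.37 in that order. The gap between the highest and the lowest 5hmC library of an area had a median of 1.94 on the log2 scale over microRNA areas, 2.39 over other short areas and 0.99 over all areas. The part of area length in these differences was not tested.

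Naive cells had the highest 5hmC of the 5 libraries at 79 of the 267 microRNA areas (29.6%), against 44.9% of all areas. Th1 had it at 45 (16.9%, against 11.6%), Th2 at 59 (22.1%, against 15.6%), the iTreg-labelled library at 54 (20.2%, against 13.8%) and the Th17-labelled library at 28 (10.5%, against 12.9%). At least 2-fold above each other library, 5hmC stood in Th1 at 14 areas (5.24%, against 0.508%), in Th2 at 20 (7.49%, against 0.586%), in the iTreg-labelled library at 23 (8.61%, against 0.533%) and in the Th17-labelled library at 9 (3.37%, against 0.49%). Mir155 was not among the 14 of Th1, since Th2 was close behind. Over the 421 areas, Spearman's rho between 2 5hmC libraries ran from 0.58 to 0.68, and over all gene areas from 0.77 to 0.87. The rank order of microRNA areas thus had a lower rho between libraries than that of gene areas in general.

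A list of 61 microRNAs with known roles in T cells was measured in full, and 50 passed the filter. Of the 61, 10 were at least 2-fold above naive in Th1 and 22 below, where 4.34% and 16.1% of all areas past the filter were. In Th2 11 were above and 18 below (4.85% and 14.8% of all areas). The iTreg-labelled library gave 12 and 20 (4.52% and 14.7%), and the Th17-labelled library 7 and 27 (4.63% and 25.6%). Among the 50 past the filter, 10 were above and 19 below in Th1, and 11 and 15 in Th2. They gave 11 and 19 in the iTreg-labelled library, and 7 and 25 in the Th17-labelled library. Shares over the 267 microRNA areas were 19.9% and 29.2% (Th1), 19.1% and 26.2% (Th2). They were 23.6% and 26.6% (iTreg-labelled), and 14.2% and 36.3% (Th17-labelled). Naive cells held the highest value at 18 of the 61, at 29.6% of the 267 microRNA areas and at 44.9% of all areas past the filter. The list's median difference from naive was -0.47 in Th1, 0.03 in Th2, -0.27 in the iTreg-labelled library and -0.90 in the Th17-labelled library (log2). The median 5hmC of the list was 7.1 in Th1, 10.6 in Th2, 10.3 in the iTreg-labelled library, 6.8 in the Th17-labelled library and 11.1 in naive cells.

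Mir155 encodes miR-155, which T cells induce on activation and which targets Socs1 and Maf. It lies at chr16:84714384-84714448 (mm9, plus strand) and in no other gene area. Its 5hmC was 51.5 in Th1, 39.2 in Th2, 9.4 in the iTreg-labelled library, 8.1 in the Th17-labelled library and 15.4 in naive cells. Th1 and Th2 thus stood above naive, by 1.73 and 1.34 on the log2 scale, and both other libraries stood below it, by less than 2-fold. Its 5mC lay between 0.2 and 0.4 in the 5 libraries, and IgG was 0.

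Mir146, which encodes the NF-kappa-B-induced miR-146a that represses Traf6 and Irak1, had a lower 5hmC than Mir155 in each library. The values were 7.3 in Th1, 12.8 in Th2, 4.9 in the iTreg-labelled library, 6.6 in the Th17-labelled library and 6.5 in naive cells, and no difference from naive reached 2-fold. Its 5mC was 2.5 in Th2 and between 0.2 and 0.4 in the other 4 libraries. Mir146b, whose product carries the same seed, had 13.3 in Th1, 28.4 in Th2, 24.2 in the iTreg-labelled library, 10.9 in the Th17-labelled library and 24.9 in naive cells.

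The miR-181 family, known from thymocytes where miR-181a lowers phosphatases that dampen T cell receptor signals, had its highest 5hmC in naive cells at the copies on chromosome 1. Mir181a-1 held 6.9 in Th1, 5.9 in Th2, 16.1 in the iTreg-labelled library, 5.6 in the Th17-labelled library and 78.1 in naive cells. Mir181b-1, the next hairpin on the same strand, held 6.9 in Th1, 24.5 in Th2, 21.6 in the iTreg-labelled library, 5.6 in the Th17-labelled library and 80.1 in naive cells. Both were thus at least 2-fold below naive in each differentiated library. For Mir181a-1 the log2 differences were -3.46 in Th1, -3.68 in Th2, -2.26 in the iTreg-labelled library and -3.75 in the Th17-labelled library.

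The other copies of the family differed. Mir181d on chromosome 8 held 4.0 in Th1, 33.1 in Th2, 8.6 in the iTreg-labelled library, 5.4 in the Th17-labelled library and 29.9 in naive cells, so that Th2 and naive stood apart from the rest. The copies on chromosome 2, Mir181a-2 and Mir181b-2, missed the filter, with naive values of 5.2 and 5.3.

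MicroRNA areas of resting lymphocytes were among the naive-high ones. Mir150, whose product targets Myb, held 18.7 in Th1, 19.3 in Th2, 18.5 in the iTreg-labelled library, 21.7 in the Th17-labelled library and 71.0 in naive cells. Mir142, a microRNA found throughout blood cells, held 14.3, 20.3, 16.6, 17.4 and 45.2 in that order of libraries. At both areas the 4 differentiated libraries were close to each other and all below naive. The log2 difference of Mir142 in Th2 from naive was -1.15, and -0.996 after median-ratio scaling, just under 2-fold.

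Mir342, which lies inside Evl, and Mir326, a microRNA reported to favour Th17 cells by targeting Ets1, were also highest in naive cells. Mir326 held 7.4 in Th1, 23.4 in Th2, 16.3 in the iTreg-labelled library, 16.6 in the Th17-labelled library and 38.5 in naive cells. Its host Arrb1 held 20.6, 22.6, 24.1, 16.7 and 34.3 in that order.

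Mir21, at chr11:86397568-86397659 (mm9, minus strand) inside Vmp1, encodes the abundant miR-21 of activated lymphocytes. Its 5hmC was 33.4 in Th1, 74.2 in Th2, 19.2 in the iTreg-labelled library, 66.6 in the Th17-labelled library and 34.3 in naive cells. Th2 was above naive by 1.11 on the log2 scale, and Th1 was level with naive. Vmp1 held 37.8, 41.3, 25.7, 23.4 and 42.1 in that order, so the hairpin exceeded its host in Th2 and in the Th17-labelled library. Its 5mC was 0.0 to 0.2 in the 5 libraries.

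Mir29a and Mir29b-1 encode miR-29 family members, which target Tbx21 and Ifng. Mir29a held 20.2 in Th1, 28.3 in Th2, 5.6 in the iTreg-labelled library, 5.8 in the Th17-labelled library and 11.2 in naive cells. Th1 and Th2 were thus above naive, and the iTreg- and Th17-labelled libraries below it. Its cluster neighbour Mir29b-1 held 24.7, 17.2, 11.6, 7.7 and 19.2 in that order, so that Th2 was below naive there. Mir29c, on chromosome 1, held 23.3 in the iTreg-labelled library and between 0.7 and 5.5 in the other 4.

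Mir15b and Mir16-2, which lie together inside Smc4 and whose shared seed targets cell cycle genes and Bcl2, were highest in naive cells. Mir15b held 6.0 in Th1, 6.5 in Th2, 14.8 in the iTreg-labelled library, 3.3 in the Th17-labelled library and 50.3 in naive cells. Smc4 itself held 20.1, 14.3, 18.3, 15.0 and 53.6 in that order, so host and hairpin were both highest in naive cells. Mir16-1 on chromosome 14, in Dleu2, held 2.3 to 5.9 in the differentiated libraries and 28.6 in naive cells. Dleu2 held 8.3 to 18.2 in the differentiated libraries and 28.9 in naive cells.

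A few T cell microRNAs were high in 1 or 2 differentiated libraries. Mir210, encoding the hypoxia-induced miR-210, held 5.2 in Th1, 71.2 in Th2, 54.9 in the iTreg-labelled library, 10.1 in the Th17-labelled library and 15.9 in naive cells. Mir222 on chromosome X held 2.4 in Th1, 2.6 in Th2, 65.3 in the iTreg-labelled library, 3.5 in the Th17-labelled library and 6.7 in naive cells, while its neighbour Mir221 held 2.6 to 4.9. Mir148a held 45.2 in Th2 and 36.0 in naive cells, and 3.5 to 4.1 in the other 3.

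**Figure D2:**
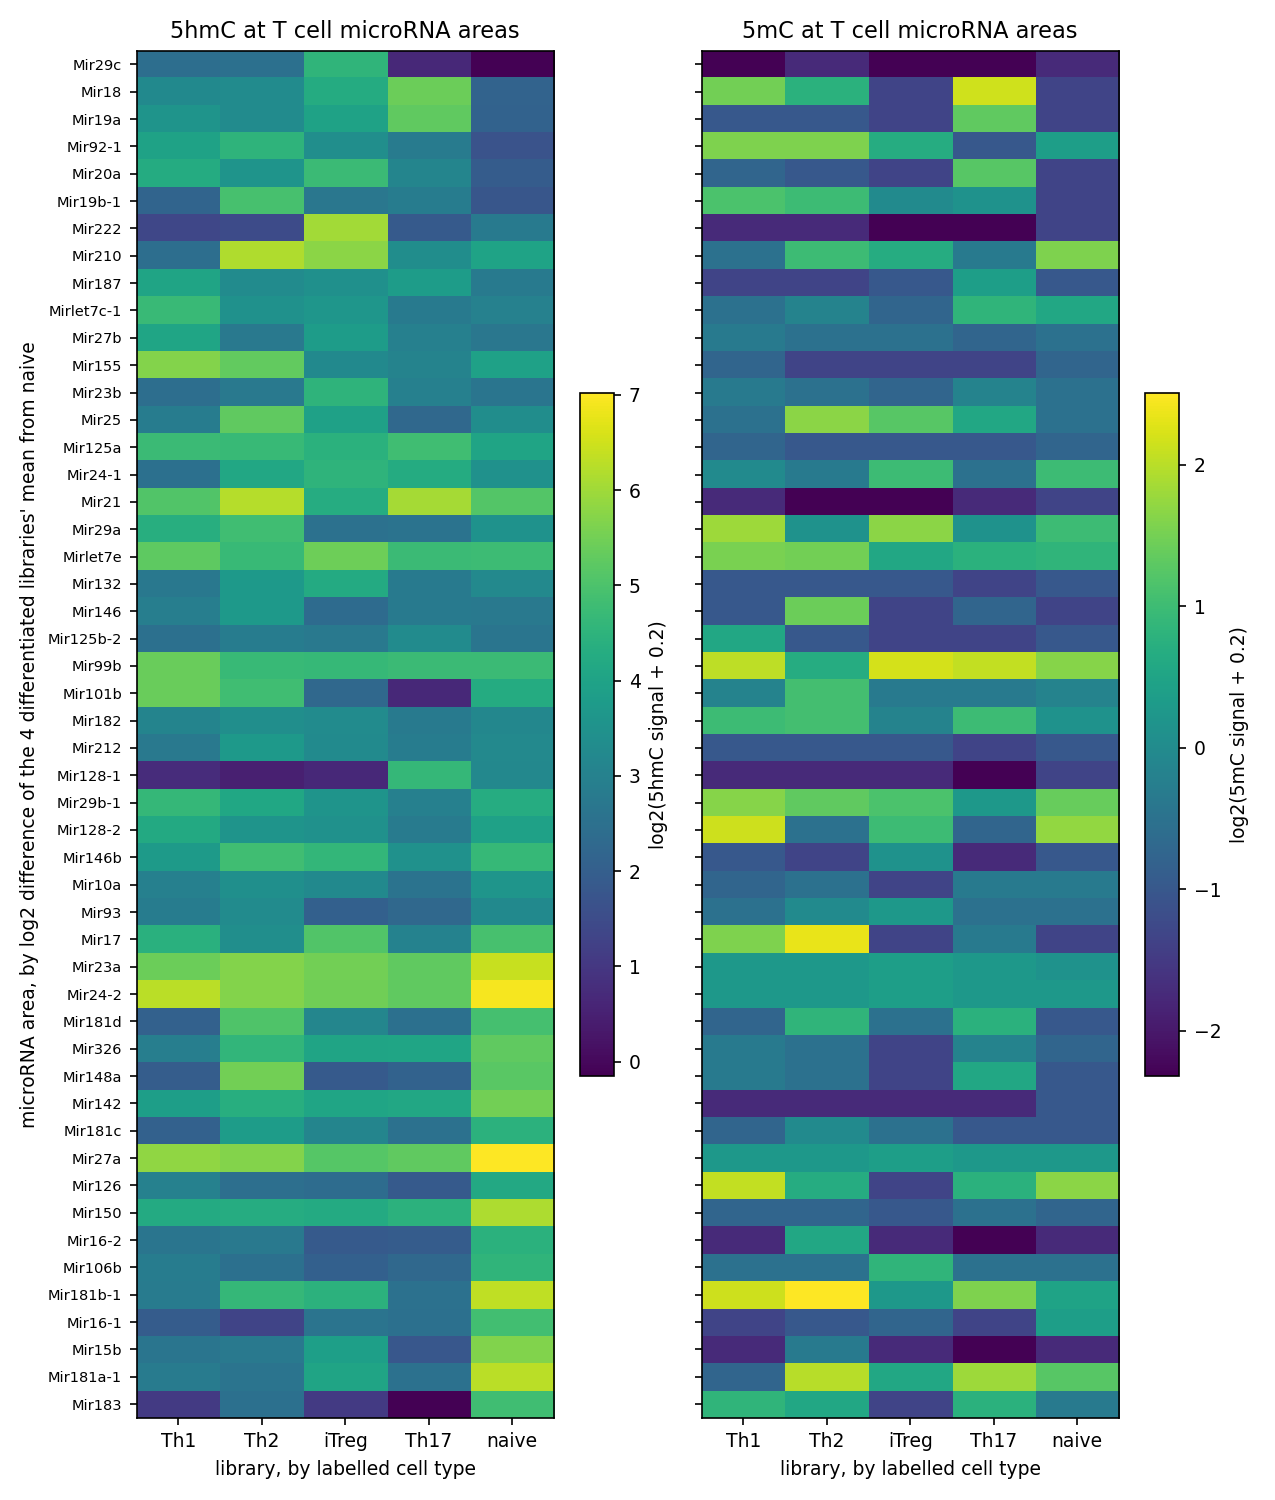
log2(signal + 0.2) of 5hmC (left) and 5mC (right) at the 50 T cell microRNA areas past the filter, one row per area and one column per library, ordered by the difference of the differentiated mean from naive in 5hmC. Areas such as Mir181a-1, Mir15b and Mir150 near the bottom are brightest in the naive 5hmC column, and Mir222 near the top is brightest in the column labelled iTreg.

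The largest single differences from naive lay mostly outside the T cell list. Mir199a-2, inside Dnm3os, held 71.5 in Th1, 4.2 in Th2, 10.7 in the iTreg-labelled library, 4.3 in the Th17-labelled library and 1.6 in naive cells. Mir467b, inside Sfmbt2, held 52.6 in Th2 and 0.7 to 4.7 in the other 4, and Mir744 held 111.6 in Th2 and 43.3 in Th1, against 7.5 in naive cells. Mir193 held 75.4 in the Th17-labelled library and 4.8 to 16.3 in the other 4. On the low side, Mir615 inside Hoxc5 held 1.4 in Th1 and 1.8 in Th2, against 27.8 in naive cells, and Mir183 held 0.7 in the Th17-labelled library, against 28.4 in naive cells. Such areas are single short windows in single libraries, and depth behind a value is unknown.

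Clusters were compared by joining hairpins on 1 strand that lie within 10 kb. This gave 57 clusters with 218 hairpins and left 202 hairpins alone. Within a cluster and a 5hmC library, the median gap between the highest and the lowest hairpin was 0.61 to 1.02 on the log2 scale. The interquartile range over all hairpins was 1.62 to 2.24. A gap within clusters, many of them pairs, is another measure than an interquartile range, so likeness within clusters was not tested. Neighbouring hairpins can share sonicated fragments. Of 78 neighbour pairs within 500 bp, 22 had equal 5hmC values in Th1, 26 in Th2, 16 in the iTreg-labelled library, 31 in the Th17-labelled library and 14 in naive cells, and 58 had equal IgG values. Members of a cluster are therefore not replicates.

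The miR-17 cluster, from Mir17 to Mir92-1 at chr14:115442892-115443727 (mm9, plus strand), encodes microRNAs that promote lymphocyte proliferation and survival. In naive cells its first hairpin Mir17 held 30.7, and the other 5 held 3.0 to 4.2. In Th1 the 6 hairpins held 4.3 to 20.8, in Th2 9.7 to 30.7, in the iTreg-labelled library 6.3 to 33.4 and in the Th17-labelled library 6.9 to 42.6. The cluster median was 13.5 in Th1, 11.0 in Th2, 17.3 in the iTreg-labelled library and 8.15 in the Th17-labelled library, against 3.85 in naive cells. The adjoining area of the host transcript, Mir17hg, held 8.0 in Th1, 11.6 in Th2, 4.1 in the iTreg-labelled library, 10.7 in the Th17-labelled library and 5.4 in naive cells. The iTreg-labelled library was thus highest by the hairpins' median and lowest at the host transcript.

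The peak along the miR-17 cluster differed between libraries. Mir18 and Mir19a were highest in the Th17-labelled library, at 42.6 and 38.1, and Mir20a in the iTreg-labelled library, at 26.3. Mir19b-1 and Mir92-1 were highest in Th2, at 30.7 and 22.7. 5mC at Mir17 was 2.8 in Th1, 4.9 in Th2, 0.2 in the iTreg-labelled library, 0.6 in the Th17-labelled library and 0.2 in naive cells. At Mir18 it was 4.3 in the Th17-labelled library, so that the hairpin with the highest 5hmC in that library also had the highest 5mC there.

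Both paralogous clusters had other patterns. In the cluster of Mir106b, Mir93 and Mir25 inside Mcm7, Mir106b held 7.1 in Th1, 5.4 in Th2, 3.9 in the iTreg-labelled library, 4.6 in the Th17-labelled library and 23.3 in naive cells. Mir25, the last hairpin of the group, held 7.1, 38.4, 15.2, 4.6 and 10.1 in that order. In the cluster on chromosome X from Mir363 to Mir106a, Mir106a held 5.2 in Th1, 66.4 in Th2, 16.5 in the iTreg-labelled library, 3.0 in the Th17-labelled library and 85.3 in naive cells, and Mir20b held 3.0 to 6.0 in all 5.

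The cluster of Mir23a, Mir27a and Mir24-2 at chr8:86732416-86732819 (mm9, plus strand), whose products restrain effector T cell responses, had a higher median 5hmC in each library than the other T cell clusters named here. Mir27a held 57.0 in Th1, 51.4 in Th2, 35.2 in the iTreg-labelled library, 38.7 in the Th17-labelled library and 130.0 in naive cells. The cluster median was 57.0 in Th1, 51.4 in Th2, 43.8 in the iTreg-labelled library and 38.7 in the Th17-labelled library, against 120.3 in naive cells. Its 5mC was 0.9 to 1.1 at every hairpin in every library.

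Its paralogue on chromosome 13, with Mir23b, Mir27b and Mir24-1, held a cluster median of 5.5 in Th1, 6.5 in Th2, 22.7 in the iTreg-labelled library, 7.6 in the Th17-labelled library and 6.3 in naive cells. Mir27a and Mir27b share the seed UCACAGU, and Mir24-1 and Mir24-2 share GGCUCAG, while the naive 5hmC levels of the clusters were far apart. All 3 of these hairpins were at least 2-fold above naive in the iTreg-labelled library.

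**Figure D3:**
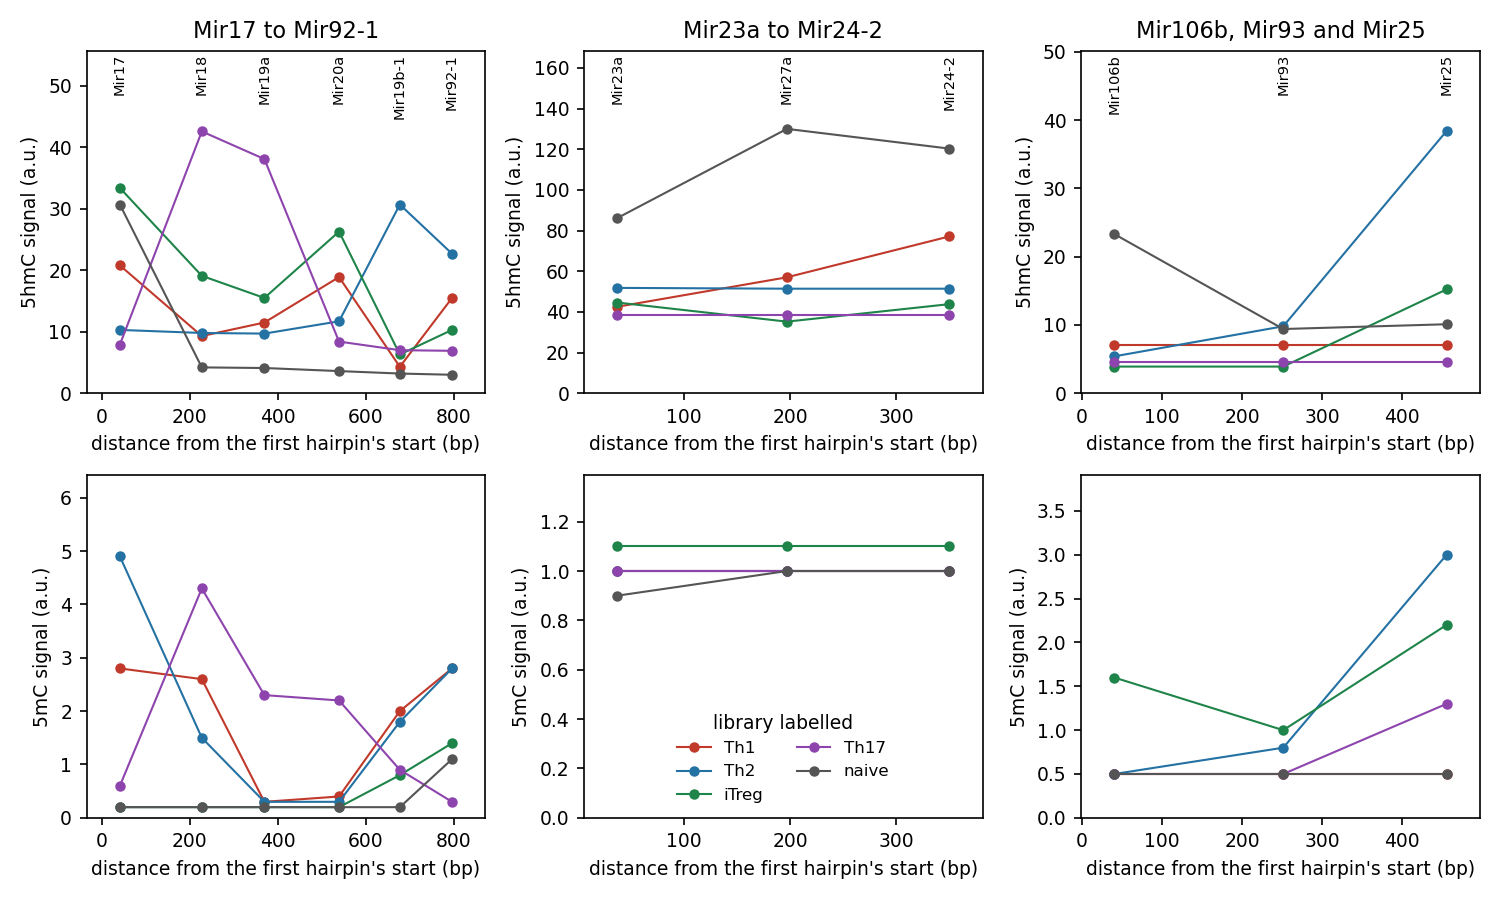
5hmC (top) and 5mC (bottom) signal at the hairpins of 3 clusters, against distance from the first hairpin's start along the transcribed strand, one line per library. In the miR-17 cluster the naive line drops to 3.0 to 4.2 after Mir17, and in the cluster of Mir23a the naive line lies above the other 4 throughout.

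The imprinted Dlk1 and Meg3 region of chromosome 12 holds the largest cluster, 35 hairpins from Mir379 to Mir410 at chr12:110947269-110982004 (mm9, plus strand), and a second one of 11 from Mir770 to Mir136. The region's microRNAs are known to be expressed from the maternal chromosome. In the larger cluster the median 5hmC was 4.7 in Th1, 3.4 in Th2, 6.1 in the iTreg-labelled library and 4.4 in the Th17-labelled library, against 3.1 in naive cells. Of its 35 hairpins, 15 were at least 2-fold above naive in Th1, 11 in Th2, 13 in the iTreg-labelled library and 9 in the Th17-labelled library, with 1, 2, 1 and 4 below in that order. Over all areas past the filter, 4.34%, 4.85%, 4.52% and 4.63% were above and 16.1%, 14.8%, 14.7% and 25.6% below in that order. Over the 267 microRNA areas past it, 19.9%, 19.1%, 23.6% and 14.2% were above and 29.2%, 26.2%, 26.6% and 36.3% below. The 35 include hairpins below the filter, so these sets are unlike. Its hairpins are also linked: Mir654, Mir376b and Mir376a had equal 5hmC in each library. Its median 5mC was 1.6, 1.3, 0.6 and 0.7 in the differentiated libraries in that order, against 0.8 in naive cells, and 14 of the 35 missed the filter. The smaller cluster had another pattern, with median 5hmC of 6.6 in Th1, 7.8 in Th2, 13.7 in the iTreg-labelled library and 4.3 in the Th17-labelled library, against 8.6 in naive cells. Of its 11 hairpins, 0 were at least 2-fold above naive in Th1 and 3 below, 1 and 1 in Th2, 1 and 0 in the iTreg-labelled library, and 1 and 3 in the Th17-labelled library.

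The Sfmbt2 intron cluster, a large rodent array of near-identical hairpins named Mir297, Mir466, Mir467 and Mir669, gave 20 areas inside Sfmbt2. Their median 5hmC was 11.8 in Th1, 9.1 in Th2, 12.9 in the iTreg-labelled library, 9.85 in the Th17-labelled library and 7.15 in naive cells, with single areas from 0.7 to 73.8. Sfmbt2 as a whole held 12.2, 12.8, 14.8, 11.6 and 17.2 in that order. How reads matching several copies were placed is not given in the sources used here, so values of single copies are uncertain, those of Mir297-2 and Mir297a-6 elsewhere included.

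Other large clusters had low 5hmC in every library. The embryonic stem cell cluster from Mir290 to Mir295 on chromosome 7 (7 hairpins) had medians of 4.2 in Th1, 4.4 in Th2, 4.4 in the iTreg-labelled library, 5.3 in the Th17-labelled library and 4.0 in naive cells. The cluster from Mir743 to Mir470 on chromosome X had medians of 2.4, 1.8, 1.4, 1.4 and 1.6 in that order.

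Of the 420 hairpins, 244 lay inside another gene area of the table, 210 on its strand and 34 opposite, in 164 hosts. The hairpin held less 5hmC than its host at 194 of the 244 in Th1, 190 in Th2, 186 in the iTreg-labelled library, 195 in the Th17-labelled library and 197 in naive cells. The median difference, hairpin minus host, was -0.87, -0.91, -0.83, -0.99 and -0.90 on the log2 scale in that order, while in input DNA it was -0.08. In 5mC it was -0.42 to -0.50, and in IgG -0.71. The gap to the host was thus also present with control IgG. The levels of hairpin and host went together, with Spearman's rho of 0.52 in Th1, 0.51 in Th2, 0.46 in the iTreg-labelled library, 0.48 in the Th17-labelled library and 0.68 in naive cells over the 244 pairs, whose reads overlap. Hairpins inside a host and the 176 outside were close in level: the medians in naive cells were 6.85 inside and 6.0 outside, and in Th2 5.75 inside and 6.6 outside.

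**Figure D4:**
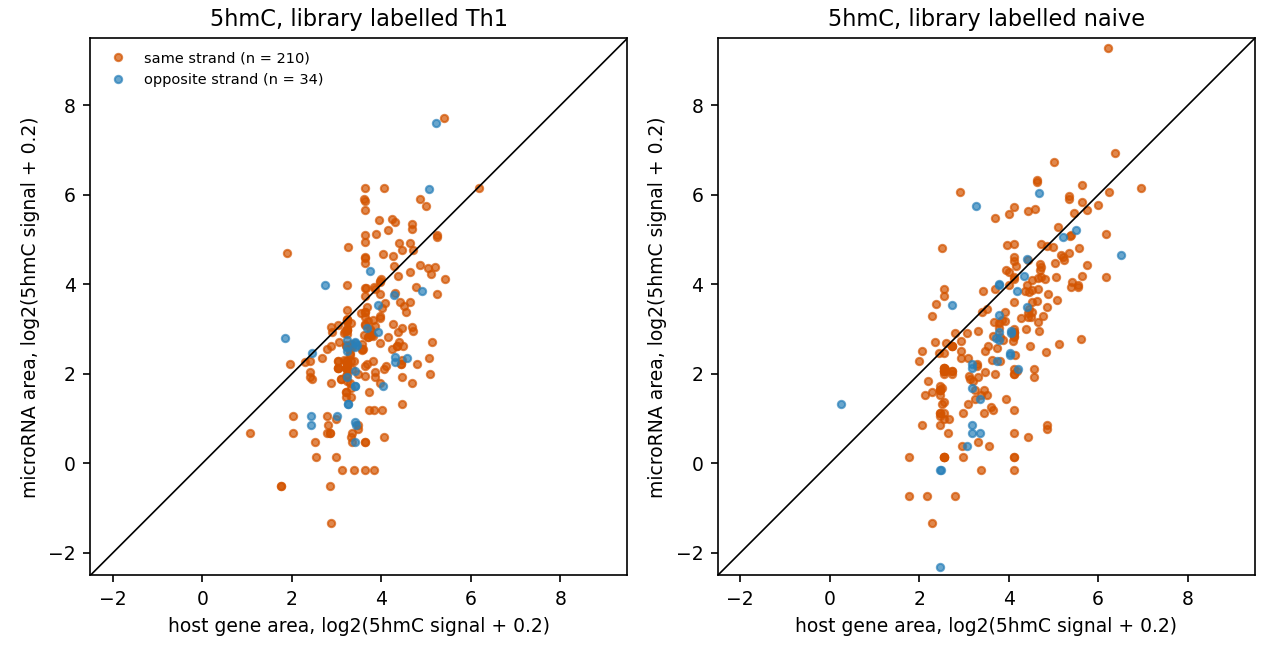
5hmC of each of 244 hairpins (vertical) against the gene area that contains it (horizontal), both as log2(signal + 0.2), in the Th1 library (left) and the naive library (right), coloured by strand. Most points lie below the line of equal signal, 194 of 244 in Th1 and 197 of 244 in naive cells.

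Cytosine in CpG is the main site of both marks, so the hairpins were searched for CG on the strand printed. A RefSeq hairpin with the same gene ID was found for 354 of the 421 areas, and 353 of these have the area's length. Of the 354, 88 hold no CG and 64 hold at least 4. Median 5hmC of the hairpins with at least 4 was 6.55 in Th1, 5.55 in Th2, 6.85 in the iTreg-labelled library, 5.3 in the Th17-labelled library and 9.15 in naive cells. For those with none it was 4.4, 3.3, 4.4, 3.0 and 4.0 in that order. Median 5mC of the same groups was 0.9, 1.0, 0.65, 0.65 and 1.05 with at least 4, and 0.3, 0.2, 0.2, 0.2 and 0.3 with none. Spearman's rho with the number of CG was 0.19 to 0.23 for 5hmC, 0.29 to 0.36 for 5mC, 0.20 for input DNA and 0.13 for IgG.

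The hairpins below, with CG in capitals, show how far sequence and signal part. They are RefSeq hairpins of GRCm38.p6, 5′ to 3′.
Mir155: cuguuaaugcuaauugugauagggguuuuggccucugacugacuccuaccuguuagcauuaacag
Mir181a-1: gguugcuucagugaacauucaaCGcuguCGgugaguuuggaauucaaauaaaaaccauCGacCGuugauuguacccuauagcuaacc
Mir181b-1: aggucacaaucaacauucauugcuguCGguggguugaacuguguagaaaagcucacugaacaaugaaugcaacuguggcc
Mir21: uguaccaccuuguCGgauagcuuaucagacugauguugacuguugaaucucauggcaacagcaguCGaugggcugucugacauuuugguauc
Mir210: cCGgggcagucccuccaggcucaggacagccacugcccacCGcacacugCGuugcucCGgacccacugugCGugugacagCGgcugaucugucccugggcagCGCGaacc
Mir222: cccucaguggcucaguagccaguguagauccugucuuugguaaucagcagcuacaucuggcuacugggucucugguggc
Mir155 and Mir222 contain no CG, yet held 51.5 in Th1 and 65.3 in the iTreg-labelled library. A sonicated fragment can reach past the hairpin, so the mark need not lie in these letters. Mir210 has 8 CG and Mir181a-1 has 4.

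For 5mC against naive cells, 44 of the 267 areas were at least 2-fold above in Th1 (16.5%, against 2.22% of all areas) and 41 below (15.4%, against 2.23%). In Th2, 43 were above (16.1%, against 1.56%) and 36 below (13.5%, against 3.12%). The iTreg-labelled library gave 33 above (12.4%, against 1.33%) and 56 below (21.0%, against 4.63%). The Th17-labelled library gave 34 above (12.7%, against 1.5%) and 53 below (19.9%, against 3.99%). After median-ratio scaling the Th17-labelled library gave 41 above and 41 below. Among other short areas the shares were 6.08% to 11.0% above and 14.9% to 19.9% below.

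5mC was highest in Th1 at 64 of the 267 areas (24.0%, against 26.2% of all areas), in Th2 at 48 (18%, against 10.4%), in the iTreg-labelled library at 28 (10.5%, against 7.32%), in the Th17-labelled library at 27 (10.1%, against 6.59%) and in naive cells at 55 (20.6%, against 23.1%). It was at least 2-fold above each other library in Th1 at 8 areas (3.0%, against 0.252%), in Th2 at 10 (3.75%, against 0.206%), in the iTreg-labelled library at 8 (3.0%, against 0.17%) and in the Th17-labelled library at 10 (3.75%, against 0.206%).

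Many of these 5mC ratios rest on values near the rounding step. With a pseudocount of 1 in place of 0.2, the Th1 counts came to 22 above and 22 below, and those of the Th17-labelled library to 12 and 22. Mir455 had clearly measurable values, with 5mC of 1.9 in Th1, 2.5 in Th2, 2.5 in the iTreg-labelled library, 2.2 in the Th17-labelled library and 8.1 in naive cells. Mir300 in the Dlk1 and Meg3 region held 0.5 in the iTreg-labelled library and 8.3 in naive cells.

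5hmC was compared with 5mC across the 5 cell types with limma, after each library was centred on its median gene area, so a positive value means more 5hmC relative to 5mC than at the median area. Of the 267 areas, 34 had higher relative 5hmC and 61 lower, at an adjusted p under 0.05 and a difference of at least 2-fold. Over all areas the shares were 10.1% higher and 7.62% lower. The median over microRNA areas was -0.24 on the log2 scale, against 0.08 over all areas. Without the filter 36 of 421 were higher and 139 lower, against 3607 and 6035 of all 37544 areas. Lower calls were thus also more frequent over all areas in that setting. Without the iTreg- and Th17-labelled libraries, 30 of 267 were higher and 54 lower, against 3058 and 1971 of all 28159 areas. The 5 cell types took the place of replicates, so SE and p describe the spread between cell types and not between repeated libraries.

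At the 5hmC-rich end, Mir297-2 differed by 4.07 ± 0.30 (SE) and Mir21 by 3.38 ± 0.32, with limma adjusted p of 0.000126 and 0.000247. The 5mC of Mir21 was 0.0 to 0.2, at the rounding step, so the size of its difference depends on the pseudocount of 0.2. Mir142 differed by 2.12 ± 0.19 with an adjusted p of 0.000203, and each hairpin of the Mir23a cluster by 1.55 to 1.78. Of the 50 T cell microRNAs tested, 9 were higher, among them Mir150, Mir125a, Mir146b and Mir155. Lower were 6, among them Mir126, whose host Egfl7 is an endothelial gene. Over all areas 10.1% were higher and 7.62% lower, and of the 267 microRNA areas 34 were higher and 61 lower. Of the largest calls and those of T cell microRNAs, 20 stayed and 4 weakened with a pseudocount of 1. Mir155 differed by 1.49 ± 0.38 with an adjusted p of 0.0149 and no longer passed without the Th1 libraries, at 1.17, without the Th2 libraries, at 1.16, or with a pseudocount of 1, at 0.89.

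At the 5mC-rich end, Mir215 differed by -3.54 ± 0.29 with an adjusted p of 0.00018, Mir219-2 by -3.39 ± 0.42 and Mir411 by -3.39 ± 0.23. Mir215 held 5hmC of 3.1 in Th1, 7.0 in Th2, 4.1 in the iTreg-labelled library, 4.1 in the Th17-labelled library and 7.6 in naive cells, and 5mC of 7.2, 6.8, 2.4, 2.6 and 2.8 in that order. Its IgG signal was 10.8, above its 5hmC. The cluster from Mir379 to Mir410 gave 15 lower calls and 0 higher among its 21 tested hairpins. The cluster from Mir770 to Mir136 gave 4 lower and 0 higher of 10. Over all areas 7.62% were lower and 10.1% higher, and of the 267 microRNA areas 61 were lower and 34 higher. Neighbouring hairpins are not replicates, and Mir654, Mir376b and Mir376a had equal 5hmC in each library. The median of the smaller cluster was -0.99, against 0.08 over all areas.

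**Figure D5:**
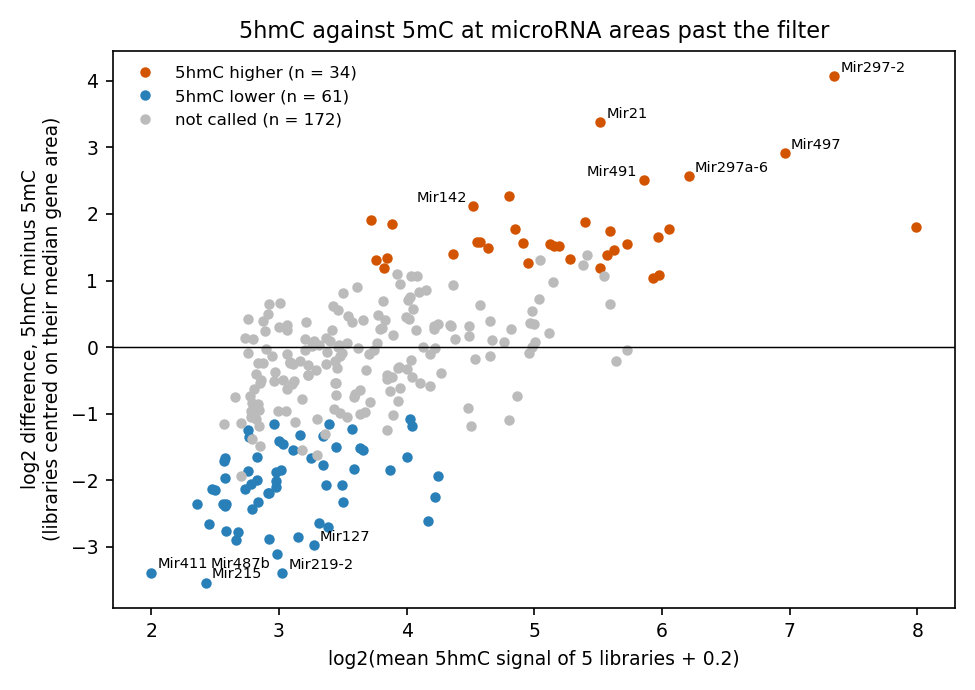
log2 difference of 5hmC minus 5mC from limma (vertical, libraries centred on their median gene area) against the log2 mean 5hmC signal (horizontal) at 267 microRNA areas past the filter. The 34 higher calls lie toward high 5hmC, with Mir297-2 at 4.07, and the 61 lower calls toward low 5hmC, with Mir215 at -3.54.

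The control libraries exist for Th17 cells only. At 238 of the 267 areas (89.1%, against 97.4% of all areas) the Th17-labelled 5hmC library was at least 2-fold above IgG, and at 11 (4.12%, against 0.217%) at least 2-fold below. It was at least 2-fold above input at 217 (81.3%, against 97.4%) and below at 2 (0.749%, against 0.0284%). These counts depend on the scale of the libraries, which the sources do not define. With each Th17 library centred on its median area, 99 microRNA areas were at least 2-fold above IgG and 44 above input. Centring shifts every area alike, and all areas were not counted after it, so the fall is not particular to microRNA areas. IgG was at least 2-fold above input at 18 areas (6.74%, against 4.2%). The highest IgG values were 46.7 at Mir376a, 46.4 at Mir874, 42.3 at Mir322, 39.7 at Mir99a and 34.2 at Mir148b. Mir155, Mir146, Mir181a-1, Mir181b-1 and Mir222 had an IgG signal of 0, and Mir17 to Mir92-1 had 1.1 at every hairpin.

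The let-7 family, which is known for restraining proliferation and cytokine genes, has 12 measured areas, of which 6 passed the filter. Of the 12, 2 were at least 2-fold above naive in Th1 and 3 below, 0 and 3 in Th2, 0 and 5 in the iTreg-labelled library, and 1 and 4 in the Th17-labelled library. Among the 6 past the filter, 1 was above and 3 below in Th1, and 0 and 2 in Th2. They gave 0 and 3 in the iTreg-labelled library, and 0 and 2 in the Th17-labelled library. Of all areas past the filter, the shares above and below were 4.34% and 16.1% (Th1), 4.85% and 14.8% (Th2). They were 4.52% and 14.7% (iTreg-labelled), and 4.63% and 25.6% (Th17-labelled). Mirlet7g held 27.2 in Th1, 40.0 in Th2, 28.5 in the iTreg-labelled library, 70.9 in the Th17-labelled library and 74.1 in naive cells. Mirlet7c-2 held 8.1, 5.7, 4.4, 5.3 and 18.7 in that order. Relative to 5mC, Mirlet7g was called higher, at 1.74 ± 0.29 (limma adjusted p of 0.00229), and Mirlet7b and Mirlet7c-2 lower, at -1.51 ± 0.30 and -1.54 ± 0.30 (adjusted p of 0.00441 and 0.00403).

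MicroRNAs that mark other cell types had median 5hmC somewhat below that of all 421 microRNA areas. The latter was 6.0 in Th1, 6.0 in Th2, 6.5 (iTreg-labelled), 5.2 (Th17-labelled) and 6.5 in naive cells. Of 40 measured, 16 passed the filter, and the list's median 5hmC was 4.7 in Th1, 4.4 in Th2, 4.4 in the iTreg-labelled library, 4.6 in the Th17-labelled library and 5.15 in naive cells. The myeloid Mir223 held 3.0 to 11.7, the erythroid Mir144 and Mir451 4.3 to 8.0, and the neuronal Mir9-2 0.5 to 2.5. Others on the list were higher. The neuronal Mir124a-2 held 26.0 in Th1 and 7.3 to 12.7 in the other 4, with an IgG signal of 20.1, above its 7.4 in the Th17-labelled library. Mir145 of smooth muscle held 49.3 in Th1 and 61.5 in the iTreg-labelled library, against 5.1 to 10.3 in the other 3. The epithelial Mir200c held 63.0 in Th1, 36.9 in Th2, 43.8 in the iTreg-labelled library, 26.2 in the Th17-labelled library and 93.3 in naive cells, and Mir141 21.3 to 69.3, whereas Mir200a, Mir200b and Mir429 on chromosome 4 held 1.3 to 4.7. The part of other cells in these values was not tested.

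The protein-coding genes of the microRNA pathway were listed beside the hairpins. All 25 were measured and passed the filter, 0 were at least 2-fold above naive in 5hmC in any comparison, and 6 in Th1, 5 in Th2, 7 in the iTreg-labelled library and 10 in the Th17-labelled library were below. Over all areas, between 4.34% and 4.85% were above, and 16.1% (Th1), 14.8% (Th2), 14.7% (iTreg-labelled) and 25.6% (Th17-labelled) below. Eif2c2, which encodes Argonaute 2, held 30.8 in Th1, 35.8 in Th2, 30.6 in the iTreg-labelled library, 16.7 in the Th17-labelled library and 71.5 in naive cells. Drosha held 13.7, 14.0, 11.2, 10.4 and 29.9 in that order, and Dicer1 13.2, 14.5, 14.3, 13.6 and 19.4.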

How the data were processed

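The authors deposited 1 table of signal values, never negative and rounded to 1 decimal, for 37752 gene areas in 12 libraries. Short and long areas have values of like size, as a mean per base would. CASAVA 1.7.0 and mm9 are named per the submitters' processing notes. The aligner, fragment extension, duplicate handling, placement of reads with several matches and scaling have no entry in the labels (not given in the sources used here), so depth is unknown and no counting intervals were computed. Each column's number was found in 1 label title, and 0 value columns were left unused.

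The row with the highest mean was kept per symbol, which left out 208 rows and no microRNA row. Log2 values used a pseudocount of 0.2, the 5th percentile of non-zero values, which understates the change of low areas. Areas past the filter had a mean over 10 libraries of at least 3.31, the 25th percentile. A difference of at least 2-fold is a rule of size, not a test. The only test was limma 3.58.1 with trend on all 28159 areas, with cell type as a block and Benjamini-Hochberg adjustment over all of them. It was also run on simulated libraries with noise in 5hmC only and no effect of cell type. That setting differs from these data, so the run does not check the calls given here. The block rests on the labels, which name the same 5 cell types for both antibodies, and they do not say that both libraries of a type share animals. Areas and hairpins have equal lengths when both ends are counted, so coordinates are mm9 counted from 1. Gene IDs of 418 microRNA areas were found in the RefSeq gene table of GRCm38.p6, which gave names and sequences only.

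Members and gene lists were chosen with earlier results of these data known. Genes were named by a fixed rule: the T cell list, the largest differences each way per comparison, the highest and lowest mean 5hmC, the highest IgG, the largest limma calls, and clusters by size or T cell content. Mir342, Mir20b, Mir455, Mir9-2 and the members named for the check of other cell types and of the pathway were named after their values were seen. Alternatives tried were the pseudocount, the filter, median-ratio scaling, all rows, the block, each cell type left out, cluster distance and host strand. The value of 1 gene of the label check is not reported here.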

Additional observations from a re-analysis of the deposited data

Results flagged for a closer look

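At 5 of the 50 T cell microRNA areas past the filter, 5hmC was at least 2-fold above naive in one library and at least 2-fold below in another. None of these differences was tested, since each group is 1 library. The same count was not made over all areas or all microRNA areas, so whether 5 is unusual is unknown. The median gap between highest and lowest 5hmC library was 1.94 (log2) over microRNA areas, 2.39 over other short areas and 0.99 over all areas. At Mir210, the log2 difference from naive was 2.15 in Th2 and -1.58 in Th1, a gap of 3.72. At Mir25, Th2 was 1.91 above and the Th17-labelled library at -1.10, a gap of 3.01. At Mir222, the iTreg-labelled library was 3.25 above and Th1 at -1.41, a gap of 4.65. At Mir101b, Th1 was 1.12 above and the Th17-labelled library at -3.59, a gap of 4.71. At Mir128-1, the Th17-labelled library was 1.45 above and Th2 at -2.70, a gap of 4.15. In 4 of the 5 one side of the gap is a library whose lineage genes went against its label. Mir210 is the exception.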

How the results depend on the processing

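Counts of 5hmC past 2-fold kept within 1.5 times the reported ones under most alternatives. Without the filter, the numbers above naive, out of 421, were 83 (Th1), 80 (Th2) and 61 (Th17-labelled). Median-ratio scaling shifts 5hmC differences from naive up by log2 values of 0.19 for Th1, 0.15 for Th2, 0.16 (iTreg-labelled) and 0.30 (Th17-labelled), and those of 5mC by -0.02, 0.14, 0.25 and 0.24. With it 61 areas were above naive in the Th17-labelled library. 5mC counts depended most on the pseudocount. With a pseudocount of 1 the numbers above and below were 22 and 22 (Th1), 20 and 19 (Th2), 14 and 30 (iTreg-labelled), 12 and 22 (Th17-labelled). Without the filter, 67 were above naive in Th1. Below naive were 62 (Th2), 88 (iTreg-labelled) and 84 (Th17-labelled). With Th17 libraries centred on their median area, 99 microRNA areas were at least 2-fold above IgG and 44 above input, with no count made over all areas. In limma, 139 of 421 were lower without the filter, against 6035 of all 37544 areas. Without the block on cell type, 30 of 267 were higher and 61 lower, against 2843 and 2145 of all 28159 areas. Leaving out each cell type in turn gave 31 to 35 higher and 59 to 67 lower. Over all areas it gave 2716 to 2994 higher and 2069 to 2212 lower. The balance of counts above and below naive turned in some settings. For 5hmC, median-ratio scaling gave 65 above and 63 below in Th1, and 69 and 62 (iTreg-labelled). For 5mC it gave 41 and 41 both for Th1 and for the Th17-labelled library, and dropping the filter gave 60 and 62 (Th2). The causes were not tested. Depth is unknown, and 5mC near the rounding step of 0.1 limits its ratios.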
